A study of Mus musculus with 26 samples.

Results

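Pmel-1 T cells treated with MRTX1719 were compared with pmel-1 T cells treated with GSK3326595, in 3 mouse libraries of poly(A) RNA for each inhibitor. These 6 libraries were all those of T cells under either inhibitor, among 26 libraries in the series, and all 13753 genes that passed a filter on low counts were compared. The T cells came from pmel-1 transgenic mice, are labelled wild type, and were kept in IL-2. One group received MRTX1719 at 0.5 uM for 3 days, the other received GSK3326595 at the same dose and for the same time, and 3 further libraries of pmel-1 T cells given DMSO, the solvent control, show where the level of a gene lay without an inhibitor. No group carried a gene knockout, and the age and number of the mice were not stated in the labels. In the treatment field of the labels the last digit of GSK3326595 differs for replicates 2 and 3, whereas all 3 titles give the same name, and the libraries were treated as 1 compound.

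PRMT5 is the main enzyme that places symmetric dimethyl marks on arginines, among them those of Sm proteins, other RNA-binding proteins and histones. It works in a complex with the cofactor Wdr77. GSK3326595 inhibits PRMT5 whether or not a cell accumulates methylthioadenosine (MTA), whereas MRTX1719 binds PRMT5 together with MTA, a by-product of polyamine synthesis that the enzyme Mtap clears. The T cell receptor of pmel-1 T cells recognises the melanocyte antigen gp100, and these cells are CD8+ killer cells when activated. The comparison therefore asks how far the RNA of T cells without an Mtap knockout differed under an MTA-cooperative inhibitor and under one that is not.

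The 6 libraries held 14064859, 17625705 and 20772699 counts with MRTX1719 and 19486976, 15370449 and 19861020 counts with GSK3326595, and the DMSO libraries held 13813406 to 18656379. Counts were converted to CPM (counts scaled to a common library total) on scaled library sizes. Fold changes are on the log2 scale, MRTX1719 over GSK3326595 unless stated, with standard errors after ±, and a gene is called higher or lower where the adjusted p of edgeR's quasi-likelihood test (Benjamini-Hochberg over all genes tested) was below 0.05. The labels do not say whether the libraries of a group came from separate cultures or mice, so the p-values rest on library-to-library spread that may be purely technical. In bulk RNA, fewer cells of a kind and less RNA per cell cannot be told apart.

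The cells were T cells by their markers. All 10 T cell markers were measured, with a summed level of 11090 to 11730 CPM with MRTX1719, 12770 to 14200 CPM with GSK3326595 and 10230 to 10500 CPM with DMSO, and Cd8a stood at 587, 604 and 600 CPM with MRTX1719 and 836, 825 and 861 CPM with GSK3326595, with 544, 570 and 561 CPM with DMSO. Several defining markers of other cells were at or near 0. Cd4 did not exceed 0.757 CPM in any library, the B cell gene Ms4a1, the myeloid genes Lyz2, S100a8 and S100a9, and the NK cell gene Ncr1 had no count in any of the 9 libraries, and the tested B cell, myeloid, dendritic cell and erythroid marker lists each summed to at most 10.7 CPM in any library. The 3 tested CD4 and regulatory T cell markers summed to 34.4 to 38.8 CPM with MRTX1719, 30.1 to 33.9 CPM with GSK3326595 and 40.3 to 42.6 CPM with DMSO. Zbtb7b made up most of this sum, at 33.3 to 37.4 CPM with MRTX1719, 28.3 to 32.3 CPM with GSK3326595 and 38.9 to 41.6 CPM with DMSO. The 3 tested NK cell markers summed to 22.3 to 27.0 CPM with MRTX1719 and 19.7 to 21.4 CPM with GSK3326595. The 5 tested stromal and epithelial markers summed to 27.3 to 33.7 CPM with MRTX1719, 47.3 to 60.0 CPM with GSK3326595 and 29.6 to 36.8 CPM with DMSO, of which Pecam1, a gene that T cells can also express, made up 19.4 to 22.3 CPM with MRTX1719, 37.6 to 42.3 CPM with GSK3326595 and 17.0 to 21.2 CPM with DMSO.

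The inhibitors gave different RNA profiles. Of 13753 genes, 5376 (39.1%) were called, with 2660 higher (19.3%) and 2716 lower (19.7%) with MRTX1719. When libraries were scaled by their totals alone, the split moved to 2113 higher and 3329 lower genes. Most differences were small: the median size among called genes was 0.32 on the log2 scale, and 176 genes were at least 2-fold higher and 152 at least 2-fold lower (2.38% of genes together). For 4918 genes (35.8%) the 95% interval of the difference lay wholly within 0.322 of 0 on the log2 scale. For those genes a larger difference was outside the interval. Genes at low counts have wide intervals, so this share depends on level as well as on the difference. On a principal component analysis the MRTX1719 libraries lay at -1.51, -1.18 and -1.09 on the component that held 65.5% of the variance, the GSK3326595 libraries at 20.6 to 20.8 and the DMSO libraries at -19.6 to -19.3. On the next component (18.4%), the MRTX1719 libraries lay at -13.9 to -11.3, apart from the other groups, at 5.41 to 5.75 with GSK3326595 and 6.56 to 6.77 with DMSO.

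**Figure D1:**
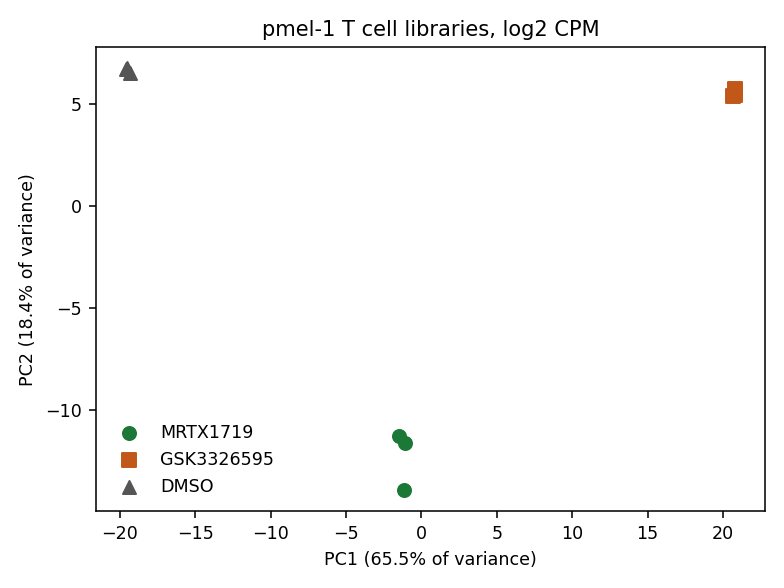
Scores of the 9 T cell libraries on the first (x axis) and second (y axis) principal components of log2 CPM, with one point per library. The MRTX1719 libraries sit between the GSK3326595 and DMSO libraries on the x axis and below both on the y axis.

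Against DMSO, 5140 genes (37.4%) were called with MRTX1719 and 7260 genes (52.8%) with GSK3326595, and at least 2-fold changes were found for 1.88% and 5.93% of genes. These comparisons share the DMSO libraries with each other, and each shares an inhibitor's libraries with the comparison of the inhibitors, so no overlap between them is given.

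**Figure D2:**
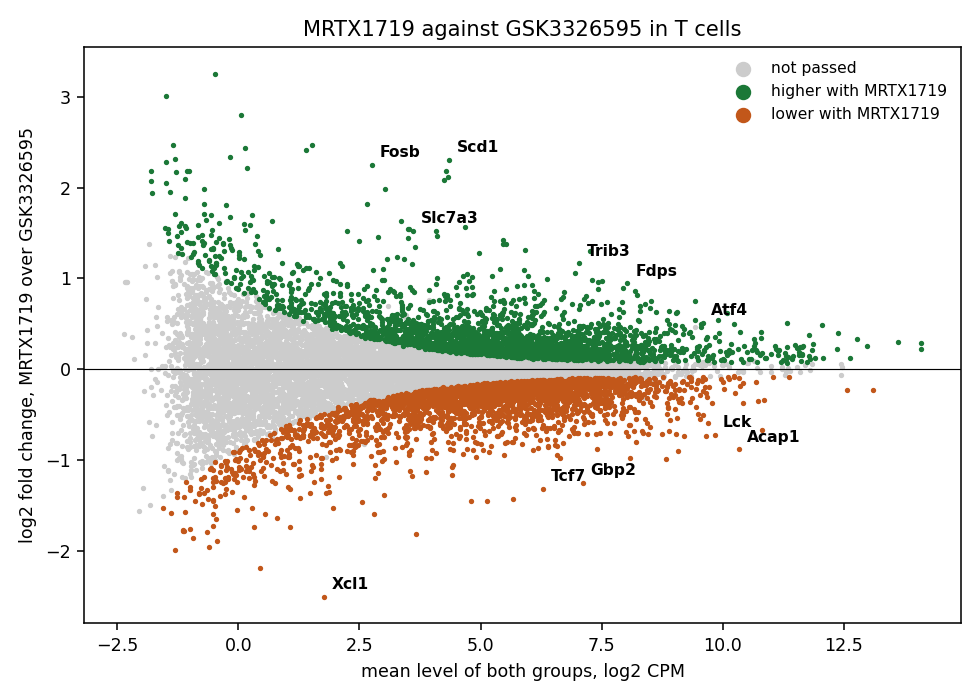
Each point is one of the 13753 genes, with its mean level over both groups (x axis, log2 CPM) and its log2 fold change, MRTX1719 over GSK3326595 (y axis), coloured by the adjusted p threshold of 0.05. Labelled genes are described in the text, and the largest differences lie at low and middle levels.

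Among the genes with the largest called differences, those that no list covered had several functions. Higher with MRTX1719 were the activation receptor Tnfrsf8, Rpph1, the RNA of ribonuclease P (1.55), Angptl6, a secreted angiopoietin-like factor, the phosphatase Ptpn5, Pycr1, which makes proline, and Gpt2, a mitochondrial alanine transaminase. Pycr1 had 8.99, 9.90 and 10.7 CPM with MRTX1719, against 3.22, 2.39 and 2.75 CPM with GSK3326595 and 11.5, 12.9 and 11.2 CPM with DMSO (1.82 ± 0.147, adjusted p = 3.04e-19). Ptpn5 stayed below DMSO with both inhibitors, at 13.6 to 16.5 CPM with MRTX1719 and 4.54 to 5.52 CPM with GSK3326595, against 26.3 to 28.5 CPM with DMSO (1.63 ± 0.112).

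Lower with MRTX1719 were Cd7, a surface glycoprotein of T and NK cells, the adaptor Dok3, the fatty acid transporter family gene Slc27a3, the nucleoside transporter family gene Slc28a2b, Pou6f1, Nsg2, Insl3, Hmcn2 and the GTPase gene Gbp10, with log2 fold changes of -1.59 to -1.20. Slc28a2b and Gbp10 have close copies whose reads the counting may share. Cd7 had 3.48, 3.32 and 3.56 CPM with MRTX1719, against 9.66, 11.6 and 10.1 CPM with GSK3326595 and 2.22, 2.06 and 2.73 CPM with DMSO (-1.59 ± 0.150, adjusted p = 8.09e-16). Pou6f1, a POU-domain transcription factor, had 26.7 to 28.5 CPM with MRTX1719, 72.4 to 76.0 CPM with GSK3326595 and 20.7 to 25.0 CPM with DMSO (-1.43 ± 0.060).

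Among the genes with the smallest p were the extracellular protease gene Adamts10, the Arf regulator Acap1 and the lipid transfer gene Gramd1a. Acap1 had 901, 903 and 942 CPM with MRTX1719, against 1675, 1722 and 1657 CPM with GSK3326595 and 656, 649 and 694 CPM with DMSO (-0.88 ± 0.032, adjusted p = 5.27e-41). Adamts10 (-0.99 ± 0.036) and Gramd1a (-0.90 ± 0.034) had the same order, with the MRTX1719 libraries between the DMSO and GSK3326595 libraries and no overlap.

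Signs of handling and RNA quality moved with the groups and are given here once. Of 18 immediate early genes, which respond within minutes to stimulation or handling, 11 were higher and 2 lower with MRTX1719 than with GSK3326595, and their summed level was 1562 to 1602 CPM with MRTX1719, 1344 to 1378 CPM with GSK3326595 and 1876 to 1977 CPM with DMSO. Of 10 cytosolic heat shock genes 7 were higher and none lower, at 10790 to 11450 CPM with MRTX1719, 8825 to 9010 CPM with GSK3326595 and 10590 to 11090 CPM with DMSO. Of 12 nuclear retained RNAs 5 were higher and 2 lower. Their summed level was 7789 to 8348 CPM with MRTX1719, 6227 to 6411 CPM with GSK3326595 and 6664 to 6970 CPM with DMSO. In turn, 72.2%, 70.0% and 58.3% of these lists were called, against 39.1% over all genes. The part of these lists in the results on gene groups was not tested.

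Genes of the amino acid stress response driven by the transcription factor Atf4 were higher with MRTX1719 than with GSK3326595. Of 29 tested targets 27 were higher and 1 (Ddit4) was lower, with a median log2 fold change of 0.75. Over all genes the median was -0.0040 and 39.1% were called. Against DMSO, 5 targets were higher and 11 lower with MRTX1719, and none higher and 25 lower with GSK3326595. The shares lower than DMSO over all genes were 18.5% with MRTX1719 and 26.2% with GSK3326595. Trib3, a pseudokinase induced by Atf4, had 176, 181 and 186 CPM with MRTX1719, against 81.0, 78.7 and 82.0 CPM with GSK3326595, and 186, 175 and 179 CPM with DMSO. The MRTX1719 libraries all lay above the GSK3326595 libraries and among the DMSO libraries, and the log2 fold change was 1.17 ± 0.041 (adjusted p = 5.49e-42).

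Atf4 itself differed by less, with 875, 932 and 929 CPM with MRTX1719, against 626, 652 and 638 CPM with GSK3326595, and 922, 884 and 993 CPM with DMSO (0.51 ± 0.035, adjusted p = 8.85e-23). Asns, which makes asparagine, had a log2 fold change of 1.06 ± 0.043 (adjusted p = 2.2e-38). Its MRTX1719 libraries stood at 165 to 168 CPM and its GSK3326595 libraries at 77.5 to 83.9 CPM, with no overlap, and its DMSO libraries at 164 to 182 CPM. The serine synthesis enzymes Psat1 (0.89) and Phgdh (0.68), the transcription factor Atf5 (1.31) and the leucine sensor Sesn2 (0.99, also listed as a p53 target) were higher as well. Among transporters, the cationic amino acid carrier Slc7a3 stood at 17.2 to 18.7 CPM with MRTX1719, 5.83 to 6.52 CPM with GSK3326595 and 20.02 to 22.7 CPM with DMSO. Only Wars, the tryptophanyl-tRNA synthetase, did not pass (-0.08).

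A few Atf4 targets carry a full C/EBP-ATF response element near the start of transcription, and their promoters are printed because they hold the letters that Atf4 is known to bind. In windows of RefSeq promoters (GRCm38.p6, 250 bases before to 50 after the start, both strands), TGATGNAAT was found for 3 of 22 Atf4 targets with a window (13.6%) and for 293 of 27025 genes (1.08%). The capitals mark the motif, here as its reverse complement on the printed strand.

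Nupr1 (chr7:126625421-126625720, minus strand): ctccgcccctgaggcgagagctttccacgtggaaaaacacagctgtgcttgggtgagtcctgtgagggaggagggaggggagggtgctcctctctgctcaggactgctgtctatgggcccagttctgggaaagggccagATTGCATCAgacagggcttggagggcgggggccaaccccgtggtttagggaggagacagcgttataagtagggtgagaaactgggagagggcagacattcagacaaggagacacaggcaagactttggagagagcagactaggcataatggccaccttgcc
Gars (chr6:55037751-55038050, plus strand): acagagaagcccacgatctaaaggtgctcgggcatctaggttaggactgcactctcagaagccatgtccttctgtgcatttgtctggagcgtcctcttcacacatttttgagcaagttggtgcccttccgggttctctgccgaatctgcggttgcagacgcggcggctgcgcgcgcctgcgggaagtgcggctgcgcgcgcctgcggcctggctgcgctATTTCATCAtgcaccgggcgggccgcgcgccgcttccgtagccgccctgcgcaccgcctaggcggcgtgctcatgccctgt
Aars (chr8:111033592-111033891, plus strand): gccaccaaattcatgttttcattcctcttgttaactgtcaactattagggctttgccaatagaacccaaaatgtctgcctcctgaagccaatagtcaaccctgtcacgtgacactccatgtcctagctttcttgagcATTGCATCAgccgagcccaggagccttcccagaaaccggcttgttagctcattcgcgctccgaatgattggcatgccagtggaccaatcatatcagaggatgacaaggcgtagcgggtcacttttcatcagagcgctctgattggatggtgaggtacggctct

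Nupr1, a small stress-induced chromatin regulator, had 38.0, 39.2 and 37.4 CPM with MRTX1719, against 12.3, 14.1 and 12.4 CPM with GSK3326595 and 46.2, 43.9 and 46.0 CPM with DMSO (1.57 ± 0.075, adjusted p = 1.83e-33). Gars and Aars, the glycyl- and alanyl-tRNA synthetases, differed by less, at 0.65 and 0.40. The motif is a match of letters in these windows, not a measured binding site.

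Cholesterol and fatty acid synthesis genes, which are driven by SREBP transcription factors, formed the second group that was higher with MRTX1719. Of 28 tested genes 27 were higher and 1 (Tm7sf2) was lower, with a median of 0.47. The call of Tm7sf2 was lost when any library but DMSO replicates 1 and 2 and MRTX1719 replicate 3 was left out. Against DMSO the counts were 5 higher and 12 lower with MRTX1719, and none higher and 26 lower with GSK3326595. Over all genes, the lower shares were 18.5% and 26.2%. The largest difference of the list was in Scd1, which makes monounsaturated fatty acids: 32.0, 36.2 and 33.9 CPM with MRTX1719, against 5.62, 7.16 and 7.89 CPM with GSK3326595 and 39.1, 40.5 and 36.5 CPM with DMSO. The GSK3326595 libraries lay far below all others, and the log2 fold change was 2.31 ± 0.090 (4.95-fold, adjusted p = 6.7e-39).

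Fdps, which makes the farnesyl units of sterols, had 334 to 354 CPM with MRTX1719, 176 to 182 CPM with GSK3326595 and 352 to 358 CPM with DMSO (0.95 ± 0.036, adjusted p = 8.82e-40). Fatty acid synthase Fasn (0.63) was higher with MRTX1719 too. Srebf2, a gene for an SREBP, differed little, by 0.13 [0.05 to 0.20, 95% interval].

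The sterol response element TCACNCCAC was found in the window of 1 of 19 genes of the list (5.26%), Hmgcs1, and of 388 of 27025 genes (1.44%). Its promoter is printed as the single match, with the motif in capitals. Hmgcs1, which makes HMG-CoA, had a log2 fold change of 0.47 ± 0.047 (adjusted p = 1.64e-14).

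Hmgcs1 (chr13:119690101-119690400, plus strand): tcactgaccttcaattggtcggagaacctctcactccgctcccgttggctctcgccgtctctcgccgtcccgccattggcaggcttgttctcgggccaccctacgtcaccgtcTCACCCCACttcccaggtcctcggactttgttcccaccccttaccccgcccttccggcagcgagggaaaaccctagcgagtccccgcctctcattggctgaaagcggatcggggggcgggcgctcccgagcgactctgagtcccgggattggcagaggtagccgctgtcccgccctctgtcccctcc

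Glycolysis and hypoxia genes were the third such group, with 21 of 28 higher and 3 lower (median 0.35). In this list 85.7% were called, against 39.1% over all genes. The glycolytic enzymes Tpi1 (0.74), Hk2 (0.67), Ldha (0.55) and Eno1 (0.50) were higher, and Ldha stood at 786, 827 and 830 CPM with MRTX1719, against 564, 569 and 540 CPM with GSK3326595 and 585, 589 and 569 CPM with DMSO. The MRTX1719 libraries were thus above both other groups. Pdk1, which restrains the oxidation of pyruvate in mitochondria, was lower, at 32.4 to 36.6 CPM with MRTX1719, 46.7 to 50.0 CPM with GSK3326595 and 26.5 to 30.4 CPM with DMSO (-0.51 ± 0.062).

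Cytotoxic granule genes were higher with MRTX1719 in 12 of 18 cases and lower in 3 (median 0.29). Calls covered 83.3% of this list, against 39.1% over all genes. The granzyme genes of the cluster that includes Gzmc, Gzmd, Gzme, Gzmf and Gzmg were the furthest, with log2 fold changes of 0.78, 0.97, 0.83, 1.45 and 2.12. Gzmg had 32.3, 34.0 and 31.4 CPM with MRTX1719, against 6.44, 8.13 and 7.94 CPM with GSK3326595 and 27.5, 28.0 and 29.5 CPM with DMSO (2.12 ± 0.089, adjusted p = 2.58e-37). These genes are close in sequence, so the counting may share or split their reads. Gzmb, the main killing protease, had 1592, 1493 and 1558 CPM with MRTX1719, against 1355, 1336 and 1366 CPM with GSK3326595 and 1333, 1357 and 1324 CPM with DMSO (0.19 ± 0.031, adjusted p = 1.88e-07), and the pore former Prf1 was at 93.3 to 97.9 CPM with MRTX1719, 61.1 to 63.6 CPM with GSK3326595 and 91.4 to 93.6 CPM with DMSO (0.61). Lower with MRTX1719 were the lysosomal proteases Ctsw (-0.73) and Ctsc (-0.23).

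The cytokine genes went in both directions: of 17 tested, 5 were higher and 4 lower (52.9% called, against 39.1% over all genes). Tnf was at 79.9 to 83.1 CPM with MRTX1719, 63.8 to 66.3 CPM with GSK3326595 and 116 to 122 CPM with DMSO. Ifng did not pass, at 7.63 to 10.5 CPM with MRTX1719, 8.79 to 12.4 CPM with GSK3326595 and 6.25 to 7.15 CPM with DMSO (-0.15 [-0.40 to 0.09]). The chemokine Xcl1, which attracts cross-presenting dendritic cells, had the lowest fold change of any named gene, with 0.725, 1.16 and 1.09 CPM with MRTX1719, against 6.29, 6.39 and 4.74 CPM with GSK3326595 and 0.686, 0.852 and 0.727 CPM with DMSO (-2.51 ± 0.236, adjusted p = 6.91e-16). Il10 was at low levels, with 1.74 to 1.88 CPM with MRTX1719, 0.153 to 0.387 CPM with GSK3326595 and 1.06 to 1.27 CPM with DMSO, and was higher with MRTX1719 (2.79 ± 0.407).

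Among transcription factors, Batf3, an AP-1 family factor, had 30.8 to 33.4 CPM with MRTX1719, against 6.20 to 7.52 CPM with GSK3326595 and 37.3 to 38.1 CPM with DMSO (2.19 ± 0.088). The activation receptor Tnfrsf8 (CD30) had 30.1 to 31.4 CPM with MRTX1719, against 6.75 to 7.84 CPM with GSK3326595 and 39.5 to 40.9 CPM with DMSO (2.08 ± 0.087). In both genes the GSK3326595 libraries stood far below the others. The immediate early gene Fosb was higher too, at 9.72 to 13.0 CPM with MRTX1719, against 1.94 to 2.51 CPM with GSK3326595 and 15.6 to 17.3 CPM with DMSO (2.25 ± 0.148). The costimulatory receptor Tnfrsf9 (0.81) and the inhibitory receptors Havcr2 (0.66) and Pdcd1 (0.58) were higher, while Ctla4 differed by less than its error (-0.05 [-0.17 to 0.07]) and Lag3 did not pass (-0.18, adjusted p = 0.0867). Of 21 inhibitory receptor and exhaustion genes 5 were higher and 7 lower (median -0.16), with 57.1% called against 39.1% over all genes. The transcription factor Ikzf2 (-1.06) and the receptor Cd160 (-0.35) were among the lower ones. Without GSK3326595 replicate 1 or MRTX1719 replicate 3, 3 were higher. With library totals, 3 were higher and 10 lower.

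Memory and stemness genes were lower with MRTX1719 than with GSK3326595, in 15 of 22 cases, with 2 higher (median -0.44). Over all genes, 19.7% were lower and 19.3% higher. Against DMSO, 9 memory and stemness genes were higher and 4 lower with MRTX1719, and 15 higher and 5 lower with GSK3326595. The shares higher than DMSO over all genes were 18.9% with MRTX1719 and 26.6% with GSK3326595. Tcf7, the transcription factor that marks stem-like T cells, had 46.1, 41.2 and 47.8 CPM with MRTX1719, against 112, 109 and 115 CPM with GSK3326595 and 26.8, 28.5 and 28.8 CPM with DMSO (-1.31 ± 0.051, adjusted p = 1.93e-39). Its libraries lay at 3 levels without overlap, with MRTX1719 in the middle. Ccr7, a receptor for homing to lymph nodes, had 11.7 to 13.98 CPM with MRTX1719, 27.8 to 31.2 CPM with GSK3326595 and 9.03 to 10.8 CPM with DMSO (-1.16 ± 0.086). Klf2, S1pr1, Id3 and Cd27 were lower as well, by log2 fold changes of -0.97, -0.97, -0.99 and -0.76. Il7r, the IL-7 receptor chain, was lower by more but at low levels, with 1.30, 1.05 and 0.593 CPM with MRTX1719, against 4.09, 3.03 and 2.40 CPM with GSK3326595 and 0.528, 0.355 and 0.364 CPM with DMSO (-1.74 ± 0.295, adjusted p = 6.85e-07). Id2 (-0.02 [-0.09 to 0.05]) and Bcl6 (-0.05 [-0.47 to 0.37]) did not differ beyond their error, and the interval of Id2 was narrow.

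Adhesion and trafficking receptors were lower in 14 of 22 cases and higher in 3 (median -0.34, 77.3% called against 39.1% over all genes). Integrin Itgae (-1.29), Itga4 (-0.81) and the chemokine receptor Cxcr3 (-0.71) were lower, and Ccr2 (0.33) was higher. Genes of T cell receptor signalling were lower in 16 of 29 cases and higher in 4 (median -0.15, 69.0% called against 39.1% over all genes). Still, 19 of the 29 had an interval within 0.322. Without MRTX1719 replicate 3, 2 were higher. With library totals, 1 was higher and 18 were lower. Against DMSO, 8 of the 29 were higher and 4 lower with MRTX1719, and 17 higher and 5 lower with GSK3326595. The shares higher than DMSO over all genes were 18.9% and 26.6%. Lck, the kinase that starts receptor signalling, had 695, 666 and 716 CPM with MRTX1719, against 1160, 1140 and 1131 CPM with GSK3326595 and 550, 550 and 544 CPM with DMSO (-0.72 ± 0.033, adjusted p = 4.15e-35). Ptprc (CD45) and Plcg1 were lower by -0.67 and -0.70, whereas Zap70 (0.04 [-0.04 to 0.11]) and Lat (95% interval -0.07 to 0.06) lay within their errors. The summed T cell markers were lower with MRTX1719 too. Of these 10 genes 5 were lower, 1 (Trbc1, 0.12) was higher and 4 were not called (60.0% called, against 39.1% over all genes). Trbc2 made up most of that sum, at 7753 to 8283 CPM with MRTX1719 and 8909 to 10309 CPM with GSK3326595. The summed CD8 markers Cd8a and Cd8b1 were lower as well, at 1169 to 1185 CPM with MRTX1719, 1463 to 1525 CPM with GSK3326595 and 1067 to 1100 CPM with DMSO. The part of the T cell and CD8 markers in these lists was not tested.

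**Figure D3:**
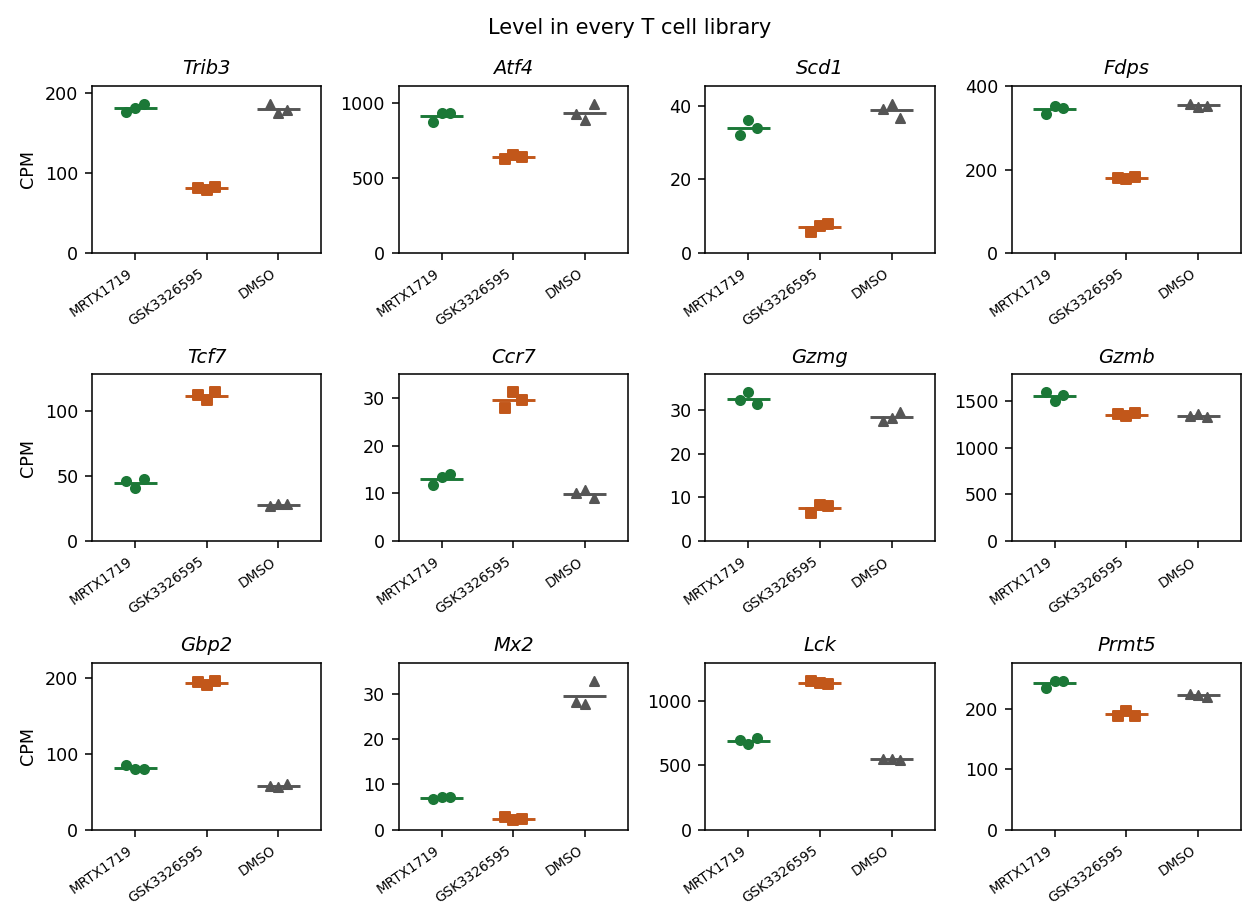
Level in CPM (y axis, from 0) in every T cell library for 12 genes, with 3 points per group and a line at the group mean, in the order MRTX1719, GSK3326595 and DMSO. For Trib3, Atf4, Fdps, Scd1 and Gzmg the GSK3326595 libraries are the lowest, and for Tcf7, Ccr7, Gbp2 and Lck they are the highest.

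Interferon-stimulated genes did not move in one direction. Of 49 tested, 15 were higher and 18 lower with MRTX1719 than with GSK3326595 (median -0.01, 67.3% called against 39.1% over all genes). Against DMSO 42 were lower and 2 higher with MRTX1719, and 34 were lower and 11 higher with GSK3326595. Over all genes, 18.5% were lower than DMSO with MRTX1719 and 26.2% with GSK3326595. The antiviral effectors Mx2, Oasl1, Ifit1, Isg15 and Rsad2, picked after their values were seen, were higher with MRTX1719 but below DMSO with both inhibitors. Mx2 had 6.67, 7.22 and 7.11 CPM with MRTX1719, against 2.76, 2.13 and 2.35 CPM with GSK3326595 and 28.2, 27.8 and 33.0 CPM with DMSO (1.53 ± 0.153, adjusted p = 1.02e-14). Isg15 had 23.8 to 26.9 CPM with MRTX1719, against 13.0 to 16.2 CPM with GSK3326595 and 71.1 to 73.3 CPM with DMSO. For both genes the 3 groups did not overlap.

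The 4 members of this list with the smallest p were Gbp2, Gbp4, Igtp and Gbp3, which encode GTPases that attack vacuoles of intracellular pathogens. Gbp2 had 85.5, 80.2 and 79.4 CPM with MRTX1719, against 194, 191 and 197 CPM with GSK3326595 and 57.3, 56.3 and 60.7 CPM with DMSO (-1.251 ± 0.042, adjusted p = 2.78e-43). Gbp4 (-0.74), Igtp (-0.71) and Gbp3 (-0.65) were lower too, whereas the family members Gbp6 (-0.32, adjusted p = 0.383) and Gbp7 (95% interval -0.07 to 0.07) did not pass. Genes of class I antigen presentation were lower in 10 of 23 cases and higher in 4 (median -0.03, 60.9% called against 39.1% over all genes). Still, 15 of the 23 had an interval within 0.322. The lower genes included Nlrc5 (-0.36) and Tapbp (-0.45), whose products drive class I gene transcription and load peptide.

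**Figure D4:**
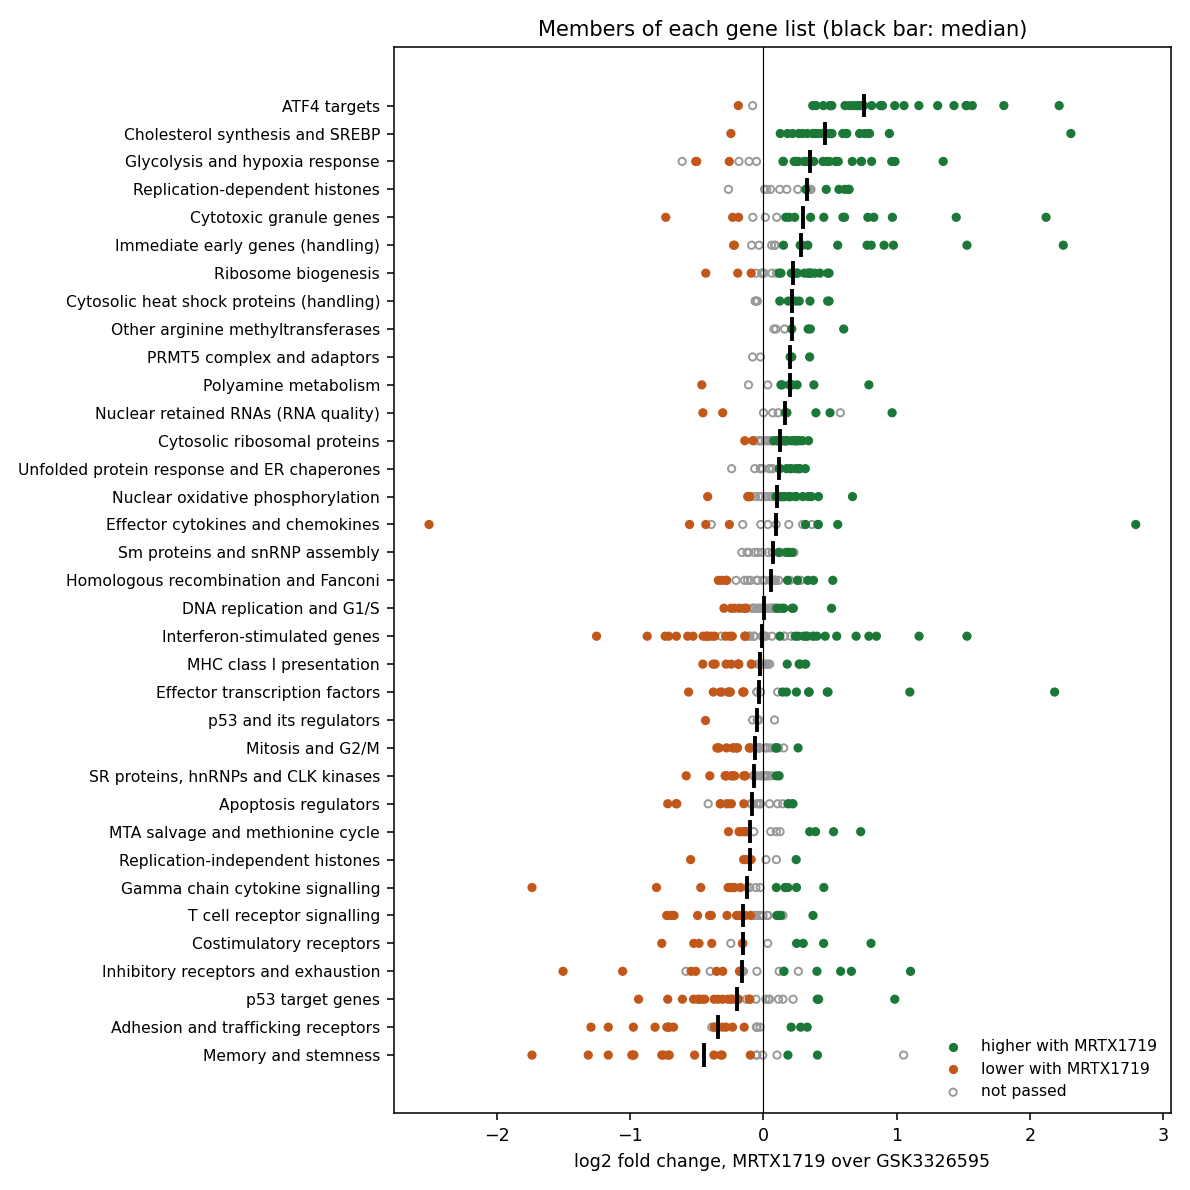
Log2 fold change, MRTX1719 over GSK3326595, of every tested member of each pathway gene list (x axis), with one row per list, filled points for called genes and a black bar at the list's median. Atf4 targets, cholesterol synthesis and glycolysis lie mostly to the right of 0, and memory and trafficking genes mostly to the left.

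In the PRMT5 machinery itself 3 of 5 genes were higher and none lower, with log2 fold changes of -0.08 to 0.35. The share called was 60.0%, against 39.1% over all genes. Prmt5 had 235, 248 and 246 CPM with MRTX1719, against 189, 196 and 188 CPM with GSK3326595 and 225, 224 and 221 CPM with DMSO (0.35 ± 0.037, adjusted p = 1.67e-13). The adaptor Riok1 (0.21 ± 0.037) and the cofactor Wdr77 (0.20 ± 0.075) were higher, though Wdr77 lost its call with library totals or without GSK3326595 replicate 2, MRTX1719 replicate 2 or MRTX1719 replicate 3, and the adaptor Clns1a was not called (-0.02 [-0.15 to 0.10]). Among other arginine methyltransferases 4 of 7 were higher and none lower (57.1% called, against 39.1% over all genes). Prmt7, which places monomethyl marks, was at 0.60, and Prmt1 at 0.35. Mtap stood at 83.8 to 87.4 CPM with MRTX1719, 79.1 to 79.9 CPM with GSK3326595 and 75.0 to 82.6 CPM with DMSO, and the difference of 0.10 [0.01 to 0.19] did not pass after adjustment (adjusted p = 0.0856). Mat2a, which makes the methyl donor SAM, was at 0.39 ± 0.043 and the spermidine synthase Srm at 0.79 ± 0.043. Of 12 polyamine metabolism genes 7, with Srm among them, were higher and 1 lower (66.7% called, against 39.1% over all genes).

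Sm proteins of the spliceosome are known PRMT5 substrates. Of 17 Sm and snRNP assembly genes 5 were higher, none lower and 14 within 0.322. Thus 29.4% were called, against 39.1% over all genes, of which 35.8% lay within 0.322, a share that also depends on level. Library totals gave 3 higher and 2 lower, and 3 were higher without GSK3326595 replicate 1 or MRTX1719 replicate 2. Snrpb was at 150 to 153 CPM with MRTX1719, 127 to 134 CPM with GSK3326595 and 121 to 127 CPM with DMSO (0.22). Of 25 SR proteins, hnRNPs and CLK kinases 2 were higher and 11 lower (median -0.07), with 52.0% called against 39.1% over all genes. At most 1 was higher without any one GSK3326595 library or MRTX1719 replicate 1 or 2. With library totals, none was higher and 16 were lower. Lower members included Clk2, a kinase of SR proteins, at 125 to 129 CPM with MRTX1719, 190 to 192 CPM with GSK3326595 and 113 to 116 CPM with DMSO (-0.58 ± 0.039) and Hnrnph1 at -0.40. Mdm4, whose splicing is known to respond to PRMT5, did not pass (0.08, adjusted p = 0.0689). Whole-gene counts do not show isoforms.

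Targets of p53 were lower in 18 of 30 cases and higher in 3 (median -0.20), with 70.0% called against 39.1% over all genes. The death receptor Fas had 16.5 to 17.6 CPM with MRTX1719, 32.2 to 33.5 CPM with GSK3326595 and 14.7 to 15.5 CPM with DMSO (-0.94 ± 0.076). Trp53 itself was lower (-0.44), and the cell cycle inhibitor Cdkn1a was not (0.04 [-0.03 to 0.11]). In the cell cycle the inhibitors differed little. The shares called were near the 39.1% over all genes, at 36.1% of DNA replication and 43.3% of mitotic genes. Of 36 DNA replication genes 7 were higher, 6 lower and 28 within 0.322 (35.8% over all genes, a share that also depends on level). Library totals gave 2 higher and 10 lower. Without any one GSK3326595 library or MRTX1719 replicate 2, 3 to 4 replication genes were higher. Of 30 mitotic genes 3 were higher, 10 lower and 21 within 0.322, with 1 higher without MRTX1719 replicate 2 and 5 without MRTX1719 replicate 3. Library totals gave 1 higher and 11 lower. Mki67, a proliferation marker, was at 770 to 802 CPM with MRTX1719, 887 to 916 CPM with GSK3326595 and 764 to 822 CPM with DMSO (-0.20), and Mcm2 differed by -0.01 [-0.10 to 0.08].

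Cytokine signalling through the common gamma chain, on which IL-2 acts, was split: 6 of 19 genes were higher and 9 lower. Among these 19 genes 78.9% were called, against 39.1% over all genes. Il2ra, the inducible IL-2 receptor chain, had 266, 269 and 265 CPM with MRTX1719, against 194, 185 and 204 CPM with GSK3326595 and 277, 273 and 276 CPM with DMSO (0.45 ± 0.037, adjusted p = 5.56e-19). The kinase Jak3 had 209 to 224 CPM with MRTX1719, against 358 to 383 CPM with GSK3326595 and 165 to 175 CPM with DMSO (-0.80 ± 0.037), and the shared receptor chain Il2rg was lower too (-0.47). The GSK3326595 libraries were thus lowest for Il2ra and highest for Jak3.

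Of 24 effector transcription factors 9 were higher and 9 lower (75.0% called, against 39.1% over all genes). Nfil3, a basic leucine zipper factor, was at 53.6 to 60.4 CPM with MRTX1719, 25.7 to 27.9 CPM with GSK3326595 and 51.4 to 59.6 CPM with DMSO (1.10 ± 0.062), and Runx3, which maintains the CD8+ lineage, was at 0.34 ± 0.036. Tbx21 (T-bet) was lower (-0.38 ± 0.089). Of 12 costimulatory receptors 4 were higher, such as Icos (0.45), and 6 lower, such as Cd226 (-0.52), with 83.3% called. Of 23 apoptosis regulators 2 were higher (1 without DMSO replicate 1 or any one inhibitor library other than GSK3326595 replicate 1) and 7 lower, among them the killer Bcl2l11 (-0.65) and the survival genes Birc2 (-0.65) and Mcl1 (-0.32). The share of apoptosis regulators called, 39.1%, was that over all genes.

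The medians of growth-related groups were small, at -0.098 to 0.22 on the log2 scale, though single genes differed by more. Calls covered 76.0% of ribosome biogenesis, 68.4% of ribosomal protein and 65.7% of oxidative phosphorylation genes, against 39.1% over all genes. Of 25 ribosome biogenesis genes 16 were higher and 3 lower (median 0.22), with Nhp2 and Dkc1, parts of the complex that makes pseudouridine, at 0.48 and 0.42. Of 38 cytosolic ribosomal protein genes 24 were higher and 2 lower, but 34 lay within 0.322, and Rpsa was the furthest (0.34 ± 0.029). Of 35 nuclear genes for oxidative phosphorylation 18 were higher and 5 lower, with 1 lower without GSK3326595 replicate 1, 3 without GSK3326595 replicate 3 and 2 without MRTX1719 replicate 1. Library totals gave 12 higher and 7 lower. Uqcrq of complex III was higher (0.67 ± 0.040) and Sdha of complex II lower (-0.42 ± 0.047). Of 18 unfolded protein response genes 9 were higher and none lower (50.0% called, against 39.1% over all genes), with Xbp1 at 0.32. Of 16 methionine cycle genes 4 were higher and 4 lower (50.0% called, against 39.1% over all genes). Lower genes numbered 2 without GSK3326595 replicate 3 and 6 with library totals. Ahcy, which clears the product of methylation reactions, was higher (0.73 ± 0.039). It had 183 to 189 CPM with MRTX1719, 111 to 115 CPM with GSK3326595 and 170 to 175 CPM with DMSO. Of 30 homologous recombination and Fanconi genes 5 were higher and 4 lower (2 lower without GSK3326595 replicate 1 or 3 or MRTX1719 replicate 1 or 3), with Brca2 at 0.38 and Brca1 at -0.27, whose call was lost without GSK3326595 replicate 3. The share of that list called, 30.0%, was below the 39.1% over all genes.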

How the data were processed

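Poly(A) RNA was sequenced in 9 pmel-1 T cell libraries with 3 treatments, 3 libraries each, grouped by the treatment in the labels. The authors deposited raw counts per gene, whole numbers with no normalization, and a table of normalized signal, found to be those counts over a single factor in each library, which served here only to pair gene identifiers with symbols (15287 of 15300 entries tied within 1e-06). Per the submitters' processing notes, the tools included DESeq 1.18.0, Bowtie2 2.1.0 and TopHat2 2.0.10, on the GRCm39 (mm39) build. Which program counted the reads, and with which strand setting, is not given in the sources used here. Overlapping and antisense genes and close copies may share reads.

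The counts of all 9 libraries were fitted in R 4.3.3 with edgeR 4.0.16 (TMM, filterByExpr by group, robust quasi-likelihood test, no covariates), which left 13753 of 56562 genes. Intervals are 95% intervals from the same fit. The scripts were tested on simulated data. Members and lists were chosen with earlier results of these data known. Named genes are the 12 with the largest called differences and the 5 with the smallest p in each direction, among genes with a symbol, 5 CPM or more in the higher group and libraries that do not overlap (predicted genes were not named), then up to 4 per list with the smallest p, and PRMT5 and T cell marker genes. Some genes that this rule selects are not reported here. Other genes named in the text were chosen after their values were seen. Alternatives were RLE size factors, library totals, other filters, the 6 libraries alone, a replicate block, DESeq2 1.42.0, and leaving out each library. Replicates differed by more than counting noise (chi-square per gene 1.96 to 3.74). Replicate numbers paired no libraries: same-numbered correlations ran from -0.0995 to 0.0718. MC38 tumour cells are not analysed here.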

Additional observations from a re-analysis of the deposited data

How the results depend on the processing

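The count of genes called between MRTX1719 and GSK3326595 (5376) was 5374 with RLE size factors, 5442 with library totals, 4757 with no filter, 4851 with a filter of 5 CPM, 5284 in the 6 libraries alone and 4542 with DESeq2. Without each library it ran from 4681 to 5398. At a mean of at least 5 CPM, the genes at least 2-fold higher and lower numbered 43 and 19, fewer because genes at low levels were left out. A replicate block gave 5265, 7195 and 5036 called genes for MRTX1719 against GSK3326595, GSK3326595 against DMSO and MRTX1719 against DMSO, though the numbers do not pair the libraries. The genes within 0.322 on the log2 scale numbered 4874 with the block and 4398 to 4934 without each library, and 6730 with no filter. Library totals alone shifted the log2 fold changes of all genes by a median of -0.0441. Among 184 named genes 17 gained or lost a call in some setting, including Wdr77, Gemin5, Prmt9, Cd247 and Mdm4. The sign of 3 named genes that had no call turned: Cd2 (-0.011 with library totals), Cd4 (-0.21 to 0.16 without a library) and Tyrobp (-0.28 to 0.14 without a library). The cause was not tested. Of the nuclear retained RNAs 1 in place of 2 was lower without GSK3326595 replicate 2 or 3 or MRTX1719 replicate 3, as was 1 immediate early gene without GSK3326595 replicate 1 and 1 ribosomal protein gene without DMSO replicate 1, any one GSK3326595 library, or MRTX1719 replicate 1 or 3. Depth limits genes at low counts, whose intervals are wide.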

Other observations

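Some RNAs that are normally made without a long poly(A) tail or stay in the nucleus differed between the inhibitors. Rpph1, the RNA of ribonuclease P, had 13.8, 18.6 and 19.1 CPM with MRTX1719, against 5.98, 5.68 and 6.09 CPM with GSK3326595 and 11.9, 17.0 and 15.4 CPM with DMSO (1.55 ± 0.122). The linker histone H1f2 was at 18.3 to 21.5 CPM with MRTX1719, 12.3 to 13.1 CPM with GSK3326595 and 25.5 to 26.3 CPM with DMSO (0.64 ± 0.087), and of 16 replication-dependent histone genes 6 were higher and none lower (37.5% called, against 39.1% over all genes), with 3 higher without MRTX1719 replicate 2. Neat1, the scaffold RNA of paraspeckles, was at 223 to 230 CPM with MRTX1719, 113 to 121 CPM with GSK3326595 and 293 to 311 CPM with DMSO (0.97 ± 0.039). Malat1, a nuclear RNA of speckles, was at 5857 to 6416 CPM with MRTX1719, 4539 to 4721 CPM with GSK3326595 and 4471 to 4757 CPM with DMSO (0.39 ± 0.031).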
